A study of Mus musculus with 4 samples.

Results

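The chemokine ligands were taken as all gene rows whose symbol is Ccl or Cxcl followed by a number and an optional letter, together with Xcl1, Cx3cl1, Pf4 and Ppbp. The rule found 40 genes among 55450 gene rows, on chromosomes 1, 4, 5, 6, 7, 8, 11 and 13. Reads of 33 of the 40 were present in at least 1 library and the other 7 had none. The libraries came from mesenteric lymph nodes of wild-type C57BL/6J mice, with 2 nodes pooled per sample, from which CD11c-positive cells were enriched on magnetic beads. The cells of each pool were shared out between a well given an Ffar2 agonist at 10 µM, whose chemical name is not given in the sources used here, and a well with water as control, and were lysed after 6 h. There were thus 2 agonist and 2 control libraries, from pools numbered 2 and 3 in both groups. Ffar2 is a receptor for short-chain fatty acids, and the titles and design give as the question what its agonist does to these cells.

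Chemokines are small secreted proteins that guide leukocytes along gradients by binding seven-helix receptors. They are named by the spacing of their first cysteines as CC, CXC, XC or CX3C, and most lie in gene clusters that arose by duplication. In a lymph node some are made constantly by stromal cells to hold T and B cells in their zones, and others are induced in dendritic cells, macrophages and lymphocytes upon activation. Mature dendritic cells are a known source of Ccl22 and Ccl17, which attract cells bearing CCR4, among them regulatory T cells.

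Between 43238375 and 59902172 reads were assigned to genes per library, and chemokine ligands took 0.348% to 0.395% of them. Itgax, which encodes CD11c, was read at 178 and 95.5 counts per 1000000 reads (CPM, with library sizes scaled for composition) in the agonist wells and at 189 and 105 CPM in the control wells of pools 2 and 3. The receptor gene Ccr7, a mark of migratory dendritic cells, stood at 7374 to 13384 CPM, and T cell and B cell marker genes were also read. Xist was read in both pool 2 libraries (21194 and 17776 reads) and in neither library of pool 3, whereas Ddx3y on the Y chromosome was read in both pool 3 libraries (21461 and 18752) and in neither of pool 2, so a difference between the pools cannot be told apart from the sex of the mice. Among 2002 genes with a mean of at least 100 CPM, 99 were over 1 log2 unit higher in the agonist well in pool 2 and 0 in pool 3. The pool 2 control lay over 1 log2 unit below each other library for 37 of these genes, which held for 0 to 2 genes in the others, and the pool 2 agonist library lay as far above each other library for 9. In these bulk libraries fewer cells of a type and less RNA per cell cannot be told apart. Nothing in the labels names separate cultures within a pool, so p-values measure the spread between these libraries.

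Of the 40 ligands, 25 had a mean of at least 1 CPM, 12 of at least 10 CPM and 3 of at least 100 CPM. Per length, as CPM divided by the exon length in kilobases (RPKM), 3 genes made up 91.0% of the summed ligand level. Ccl5, also called RANTES, which is made by T cells, natural killer cells and mature dendritic cells, came first with a mean of 923 RPKM. Ccl22 followed with 764 RPKM and Cxcl16, a membrane-bound ligand of CXCR6, with 253 RPKM. Ccl4, the fourth, had 63.7 RPKM, and every other ligand had under 18 RPKM.

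**Figure D1:**
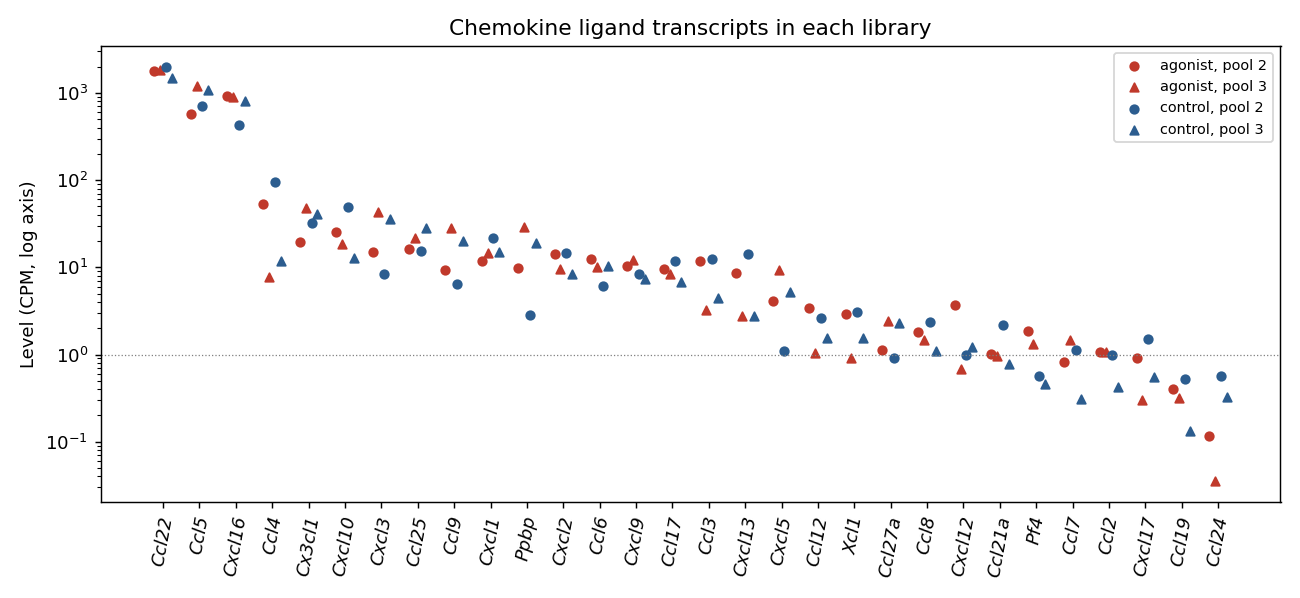
Level of the 30 tested chemokine ligand genes in each library in CPM on a log axis, with agonist wells in red, control wells in blue, circles for pool 2 and triangles for pool 3; the dotted line marks 1 CPM. Ccl22, Ccl5 and Cxcl16 lie at 433 CPM or above in all 4 libraries, and circles and triangles separate for genes such as Ccl4, Cxcl3 and Ppbp.

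Several ligands had no or few reads. Ccl20, the ligand of CCR6, the skin and mucosal genes Cxcl14 and Ccl28, the lung gene Cxcl15, the eosinophil attractant Ccl26, and the gene copies Ccl21b and Ccl27b had 0 reads in every library. A count of 0 allows up to 3 reads, which is 0.0501 to 0.0694 CPM depending on the library and covers counting error only. Ccl21b and Ccl27b are close copies of Ccl21a and Ccl27a, and reads that align to more than 1 place were not counted for any gene. The zeros of Ccl21b and Ccl27b and the counts of Ccl21a and Ccl27a are therefore uncertain. Ccl1, Ccl11 and Cxcl11 had reads but too few to be tested: Ccl1 had 63 and 2 reads in the agonist wells and 0 and 4 in the control wells, Ccl11 had 0 and 0 against 11 and 0, and Cxcl11 had 17 and 11 against 1 and 0, for pools 2 and 3 in turn. The Ccl1 reads thus sat mostly in the agonist well of pool 2 and the Ccl11 reads in the control well of pool 2. The remaining 30 ligands were tested, and counts over these 30 are not counts over all 40.

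No chemokine ligand passed the test between agonist and control. In edgeR's quasi-likelihood test with adjustment over 18297 genes, 0 of the 30 ligands and 0% of all tested genes were called, and the smallest adjusted p of any ligand was 0.9999. At an unadjusted p under 0.05, 1 ligand was higher (Pf4), or 3.33% of those tested, against 0.639% of all genes, and 0 were lower, against 0.940%. With the pool as a block the unadjusted count was 3 higher ligands (Cxcl5, Pf4 and Ppbp), 10.0% of those tested against 1.69% of all genes, and 1 lower ligand (Ccl4), 3.33% against 1.84%; the adjusted count stayed at 0 ligands, against 0.00547% of all genes, and edgeR gave an adjusted p of 0.9998 for each of the 4. DESeq2 and limma-voom also called 0 ligands, against 0.0383% and 0% of all tested genes. The median log2 fold change of agonist over control was 0.05 over the 30 ligands and -0.05 over all tested genes, and the ligands ranged from -2.55 for Ccl24 to 1.63 for Pf4.

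Within the pools the ligands split much as other genes did. Of the 30, 9 were higher in the agonist well of both pools (30.0%, against 21.0% of all tested genes), 6 were lower in both (20.0%, against 27.8%), and 15 went opposite ways (50.0%, against 51.2%). The 9 were Ccl2, Ccl27a, Ccl9, Cxcl16, Cxcl3, Cxcl5, Cxcl9, Pf4 and Ppbp, and the 6 were Ccl24, Ccl3, Ccl4, Cxcl1, Cxcl17 and Xcl1. Both agonist wells stood above both control wells for Ccl2, Cxcl16, Cxcl9 and Pf4 (13.3% of the ligands, against 11.4% of all genes) and below them for Ccl24 and Cxcl1 (6.67%, against 13.5%).

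**Figure D2:**
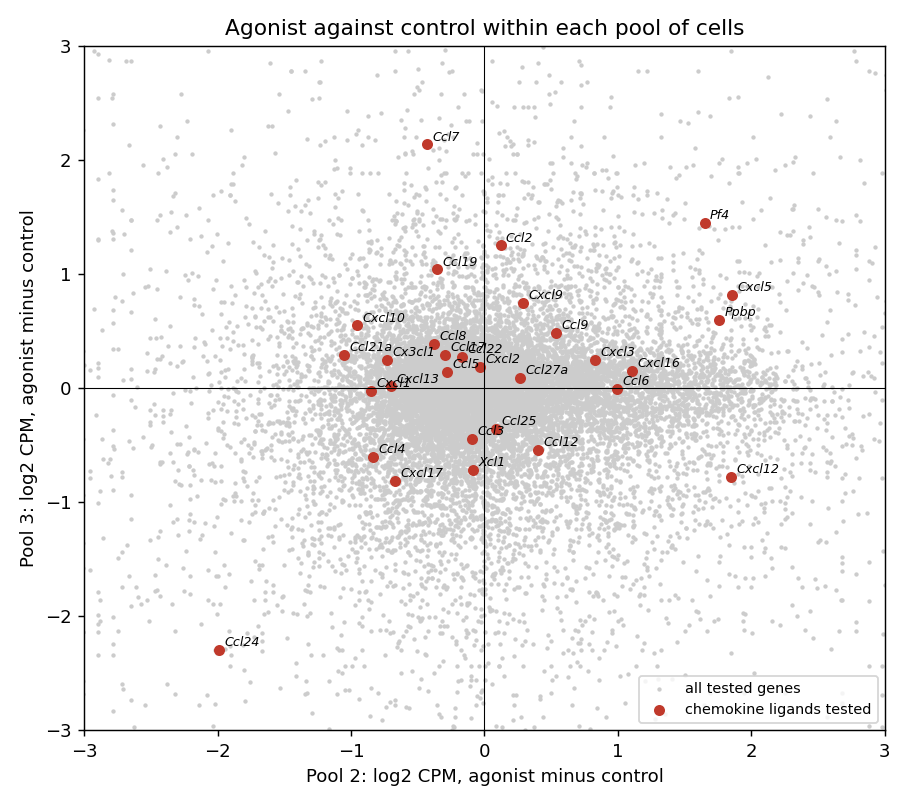
Log2 CPM in the agonist well minus the control well, for pool 2 on the x axis and pool 3 on the y axis, with the 30 tested chemokine ligands in red and all tested genes in grey; genes beyond 3 log2 units on either axis lie outside the plot. Pf4, Cxcl5 and Ppbp lie in the upper right and Ccl24 in the lower left, while Cxcl12 and Ccl7 lie where the pools go opposite ways.

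Ccl22 and Ccl17, the CCR4 ligands, stood at like levels in both treatments. Ccl22 (ENSMUSG00000031779.3, chromosome 8, 94745590 to 94751699, GRCm38) had 1785 and 1816 CPM in the agonist wells and 2002 and 1499 CPM in the control wells of pools 2 and 3. The agonist values lay between the control values. On the log2 scale, agonist over control came to 0.04 (SE 0.26, 95% interval -0.58 to 0.66), with -0.17 in pool 2 and 0.28 in pool 3. Ccl17 (chromosome 8, 94810453 to 94812036) had 9.54 and 8.39 CPM in the agonist wells and 11.7 and 6.85 CPM in the control wells. That spread also placed the agonist wells inside the control range, at a log2 fold change of -0.05 (SE 0.41). Both genes lie with Cx3cl1 on chromosome 8, but per length Ccl22 stood at 764 RPKM and Ccl17 at 17.7 RPKM.

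The inflammatory CC ligands Ccl5, Ccl4, Ccl3, Ccl9 and Ccl6, a family that draws effector T cells, natural killer cells and monocytes, differed more between the pools than between the treatments except for Ccl6. Ccl5 (ENSMUSG00000035042.2, chromosome 11, 83525778 to 83530518) had 577 and 1189 CPM in the agonist wells and 700 and 1077 CPM in the control wells of pools 2 and 3. Both high values came from pool 3. On the log2 scale, agonist over control came to -0.01 (SE 0.41, 95% interval -1.01 to 0.99). Ccl4 (chromosome 11, 83662584 to 83664683), also called MIP-1 beta, had 53.3 and 7.81 CPM in the agonist wells and 95.3 and 11.9 CPM in the control wells. It was lower with the agonist in both pools, by -0.84 and -0.60 log2 units, but the pools were much further apart than the wells. On the log2 scale, agonist over control came to -0.81 (SE 1.11, 95% interval -3.51 to 1.89), and to -0.72 in the blocked fit (SE 0.27, unadjusted p = 0.0237, adjusted p = 0.9998 in edgeR). Ccl3, or MIP-1 alpha, which lies next to Ccl4, had 11.7 and 3.23 CPM in the agonist wells and 12.5 and 4.40 CPM in the control wells, again with both high values in pool 2. Ccl9 and Ccl6 are CCR1 ligands found in rodents. Ccl9 had 9.35 and 28.4 CPM in the agonist wells and 6.43 and 20.3 CPM in the control wells, higher with the agonist in both pools by 0.54 and 0.48 log2 units. Ccl6 had 12.3 and 10.2 CPM in the agonist wells and 6.18 and 10.2 CPM in the control wells, so only the pool 2 control stood apart, and its log2 fold change was 0.46 (SE 0.41) for the agonist and 0.22 (SE 0.37) for pool 3 over pool 2.

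Cxcl16 and Cx3cl1 are made as membrane-anchored proteins that can be shed by the proteases encoded by Adam10 and Adam17. Cxcl16 (ENSMUSG00000018920.11, chromosome 11, 70453983 to 70459984) had 933 and 888 CPM in the agonist wells and 433 and 799 CPM in the control wells of pools 2 and 3. The groups did not overlap, and the pool 2 control was the low value. On the log2 scale, agonist over control came to 0.56 (SE 0.34, 95% interval -0.26 to 1.39, adjusted p = 0.9999 in edgeR), with 1.11 in pool 2 and 0.15 in pool 3, and 0.19 when that control library was left out. Adam10 showed the same low library, with 129 and 96.5 CPM in the agonist wells and 57.1 and 101 CPM in the control wells. Cxcl16 overlaps Zmynd15 on the opposite strand, which had 13880 to 28980 reads, so its counts are uncertain where the genes share sequence. Cx3cl1, or fractalkine, had 19.3 and 48.5 CPM in the agonist wells and 32.0 and 40.7 CPM in the control wells, lower in pool 2 and higher in pool 3.

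A block of 6 CXC genes on chromosome 5 holds the CXCR2 ligands, which attract neutrophils, and Pf4, or platelet factor 4. In order along the chromosome they are Cxcl5, Ppbp, Pf4, Cxcl3, Cxcl1 and Cxcl2, with Cxcl15 between Cxcl3 and Cxcl1. Cxcl5 begins at position 90759360 and Cxcl3 ends at 90789600, while Cxcl1 starts 88.2 kb beyond Cxcl15. The first 4 were higher in the agonist well of both pools and Cxcl1 was lower in both. Pf4 had 98 and 75 reads in the agonist wells and 25 and 24 reads in the control wells, or 1.88 and 1.32 CPM against 0.574 and 0.459 CPM. Both agonist wells stood above both controls, at a log2 fold change of 1.63 (SE 0.65, 95% interval 0.06 to 3.20, unadjusted p = 0.0437, edgeR adjusted p = 0.9999), and the value stayed between 1.39 and 1.86 when single libraries were left out.

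Cxcl5, a neutrophil attractant also known as LIX, had 4.10 and 9.26 CPM in the agonist wells and 1.10 and 5.23 CPM in the control wells of pools 2 and 3. The agonist well was the higher one within each pool, although the groups overlapped. Its log2 fold change was 1.07 (SE 0.80), and 1.34 in the blocked fit (SE 0.44, unadjusted p = 0.0142, adjusted p = 0.9998 in edgeR). Ppbp, the precursor of the platelet chemokine NAP-2, had 9.73 and 29.1 CPM in the agonist wells and 2.85 and 19.2 CPM in the control wells. The pool 2 control was the low library here too, and the within-pool differences were 1.76 and 0.60 log2 units (blocked log2 fold change 1.17, SE 0.37, unadjusted p = 0.0124, edgeR adjusted p = 0.9998). Cxcl3 had 14.9 and 42.9 CPM in the agonist wells and 8.41 and 36.1 CPM in the control wells, with differences of 0.83 and 0.25. Cxcl1, the mouse KC gene, had 11.9 and 14.7 CPM in the agonist wells and 21.5 and 15.0 CPM in the control wells. Cxcl2, or MIP-2, had 14.3 and 9.61 CPM in the agonist wells and 14.6 and 8.42 CPM in the control wells, with no separation of the treatments. Cxcl1, Cxcl2 and Cxcl3 are similar in sequence, and reads that matched more than one of them were left uncounted.

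Platelet and megakaryocyte markers gave these values beside Pf4 and Ppbp. Of 7 markers, Treml1, Gp5 and Gp1bb had 0 reads in every library, and the summed level of the list was 52.2 and 10.6 CPM in the agonist wells and 28.1 and 17.1 CPM in the control wells of pools 2 and 3. Most of it was Itgb3, an integrin chain that other leukocytes also carry, with 50.8, 7.40, 27.0 and 15.1 CPM in the same order. Itga2b, the platelet integrin chain, had 1.17 and 1.53 CPM in the agonist wells and 0.551 and 1.28 CPM in the control wells. Gp9 had 0.250 and 1.30 CPM against 0.551 and 0.211 CPM, so it went opposite ways in the pools. Gp1ba had 0 and 19 reads against 0 and 24 and was thus read in pool 3 only. The part of platelet RNA in the Pf4 and Ppbp values was not tested.

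**Figure D3:**
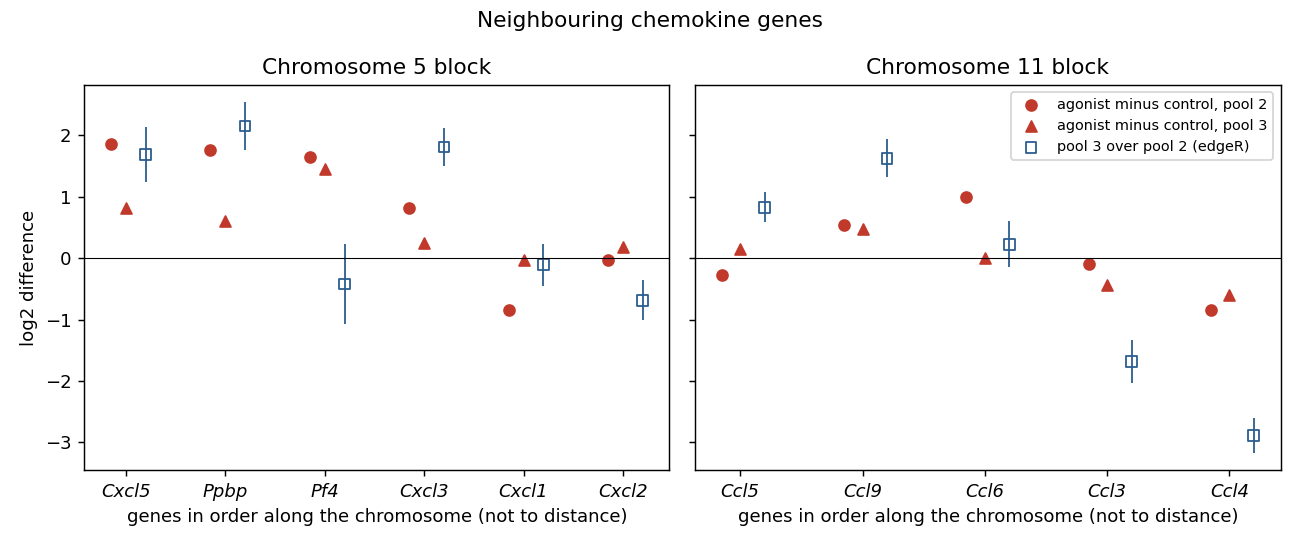
Log2 difference for neighbouring chemokine genes in their order along chromosomes 5 and 11, with agonist minus control in pool 2 (red circles) and pool 3 (red triangles), and the edgeR log2 fold change of pool 3 over pool 2 with its SE (blue squares). Cxcl5, Ppbp, Pf4 and Cxcl3 have both red symbols above 0, and Ccl3 and Ccl4 have the lowest squares of their block at -1.68 and -2.89.

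The promoters of this block are shown because neighbouring members had unlike values, so that their upstream sequences can be set beside each other. The RefSeq table (GRCm38.p6) held a promoter for 29 of the 40 ligands; those of Ccl2, Ccl4, Ccl5, Ccl7, Ccl11, Ccl24, Ccl26, Cxcl5, Cxcl11, Cxcl16 and Cxcl17 are not shown. The 250 bases before each start were searched on both strands for GGGA and CC with any 4 bases between them, a form of the NF-kB site, for TGANTCA, the AP-1 site, and for GAAA and GAAA with any 2 bases between them, the core of the interferon response element, and matches are in capitals. The printed windows are on the plus strand, at chr5:90768268-90768517 for Ppbp, chr5:90772185-90772434 for Pf4, chr5:90785851-90786100 for Cxcl3, chr5:90890995-90891240 for Cxcl1 and chr5:90903649-90903870 for Cxcl2, and the last 2 were ended where the GENCODE gene begins.
Ppbp: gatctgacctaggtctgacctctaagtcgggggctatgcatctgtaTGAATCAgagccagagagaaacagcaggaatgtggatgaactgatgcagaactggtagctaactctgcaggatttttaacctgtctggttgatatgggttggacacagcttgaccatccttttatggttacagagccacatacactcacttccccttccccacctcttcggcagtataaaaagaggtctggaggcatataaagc
Pf4: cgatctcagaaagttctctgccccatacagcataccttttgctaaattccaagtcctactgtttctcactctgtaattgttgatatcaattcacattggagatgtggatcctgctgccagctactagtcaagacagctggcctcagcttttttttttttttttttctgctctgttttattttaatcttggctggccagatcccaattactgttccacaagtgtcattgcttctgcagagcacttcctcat
Cxcl3: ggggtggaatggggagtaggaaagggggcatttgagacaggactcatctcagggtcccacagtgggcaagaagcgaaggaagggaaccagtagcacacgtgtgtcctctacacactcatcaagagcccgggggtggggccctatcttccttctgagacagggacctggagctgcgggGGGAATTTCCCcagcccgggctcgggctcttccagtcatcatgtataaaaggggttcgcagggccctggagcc
Cxcl1: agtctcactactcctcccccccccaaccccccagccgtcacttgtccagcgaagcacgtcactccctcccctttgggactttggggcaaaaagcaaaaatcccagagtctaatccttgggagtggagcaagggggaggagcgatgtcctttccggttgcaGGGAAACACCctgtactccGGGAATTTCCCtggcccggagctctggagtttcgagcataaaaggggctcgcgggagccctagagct
Cxcl2: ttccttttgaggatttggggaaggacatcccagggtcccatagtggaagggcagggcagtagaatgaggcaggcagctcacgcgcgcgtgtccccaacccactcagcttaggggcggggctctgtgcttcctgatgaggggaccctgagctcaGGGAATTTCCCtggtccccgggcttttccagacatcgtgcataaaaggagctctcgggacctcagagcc
The windows of Cxcl3, Cxcl1 and Cxcl2 each hold NF-kB letters, partly as overlapping matches on both strands, and those of Ppbp and Pf4 hold none. Ppbp has an AP-1 match 204 bases before the start. Over all ligands with a promoter, 11 of 29 windows held the NF-kB letters, against 17.6% of 32851 promoters in the table, 3 of 29 the AP-1 letters, against 6.75%, and 3 of 29 the interferon letters, against 2.98%. Each ligand was counted by a single window, the first listed, whereas the 32851 are all listed promoters, which can include several of a gene. Windows were set by the RefSeq start, and some counted matches lie inside the GENCODE gene. These are the NF-kB matches of Ccl1 and Ccl27a and the interferon match of Ccl19. The Ccl21b window ends at position 42173119 of chromosome 4, whereas its GENCODE gene begins at 42255767. A match is a stretch of letters and not a measured binding site.

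The CXCR3 ligands, which are induced by interferons and attract activated T cells, differed from each other in pattern. Cxcl10 (ENSMUSG00000034855.13, chromosome 5, 92346638 to 92348889) had 25.1 and 18.6 CPM in the agonist wells and 48.7 and 12.7 CPM in the control wells of pools 2 and 3. It was lower with the agonist in pool 2 by -0.96 and higher in pool 3 by 0.55 log2 units, and both agonist values lay between the controls (log2 fold change -0.49, SE 0.62). Cxcl9, which lies 18.6 kb away, had 10.4 and 12.3 CPM in the agonist wells and 8.48 and 7.27 CPM in the control wells. Both agonist wells stood above both controls, with differences of 0.29 and 0.75 and a fitted log2 value of 0.52 (SE 0.35, adjusted p = 0.9999 in edgeR). The Cxcl10 window, on the minus strand at chr5:92348890-92349139, is shown because it alone among the 29 ligands searched held all 3 kinds of letters, which are in capitals.
Cxcl10: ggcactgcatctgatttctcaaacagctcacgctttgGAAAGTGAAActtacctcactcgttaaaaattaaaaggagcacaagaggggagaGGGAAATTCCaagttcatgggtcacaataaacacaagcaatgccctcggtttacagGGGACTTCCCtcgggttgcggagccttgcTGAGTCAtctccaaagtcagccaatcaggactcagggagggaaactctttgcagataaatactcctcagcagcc
In it the interferon letters begin 213 bases, the NF-kB letters 159 and 103 bases and the AP-1 letters 74 bases before the start.

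The monocyte attractants, ligands of CCR2, were scarce. Ccl2, or MCP-1, had 56 and 60 reads in the agonist wells and 43 and 22 reads in the control wells of pools 2 and 3, and Ccl7 had 43 and 84 against 49 and 16. The pool 3 control was the low library for both, and Ccl7 was lower with the agonist in pool 2 by -0.43 and higher in pool 3 by 2.14 log2 units. Ccl12, found in the mouse, had 3.44 and 1.04 CPM in the agonist wells and 2.60 and 1.53 CPM in the control wells. Ccl8, which in the mouse is reported to act on CCR8, had 1.81 and 1.46 CPM in the agonist wells and 2.37 and 1.11 CPM in the control wells. Neither separated the treatments. Of the eosinophil attractants that bind CCR3, only Ccl24 was tested, with 6 and 2 reads in the agonist wells and 25 and 17 reads in the control wells, the lowest log2 fold change of any ligand (-2.55, SE 1.16, unadjusted p = 0.0695, edgeR adjusted p = 0.9999).

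The homeostatic ligands were present at low levels, with means per length of at most 6.15 RPKM (Cxcl13) and 2.75 RPKM (Ccl25). Ccl25, the CCR9 ligand of thymus and small intestine, had 16.4 and 21.9 CPM in the agonist wells and 15.4 and 28.1 CPM in the control wells of pools 2 and 3. It overlaps Elavl1 on the opposite strand, which had 682 to 1053 reads, so its counts are uncertain where the genes share sequence. Cxcl13, which directs B cells to follicles through CXCR5, had 8.67 and 2.77 CPM in the agonist wells and 14.1 and 2.74 CPM in the control wells, so both pool 2 wells were high. The CCR7 ligands of the T cell zone were Ccl21a, with 1.02 and 0.970 CPM in the agonist wells and 2.16 and 0.785 CPM in the control wells, and Ccl19, with 21 and 18 reads against 23 and 7. Cxcl12, the ligand of CXCR4, had 3.65 and 0.688 CPM in the agonist wells and 0.988 and 1.21 CPM in the control wells, and the agonist well of pool 2 alone stood apart. Ccl27a, the ligand of CCR10, had 1.12 and 2.45 CPM in the agonist wells and 0.919 and 2.30 CPM in the control wells, and overlaps Il11ra1 on the opposite strand, which had 582 to 800 reads. Reads that matched Ccl21a or Ccl27a and also a close copy were left uncounted, so the levels of Ccl21a and Ccl27a are uncertain. Stromal and endothelial markers, 10 genes whose source cells make several of these ligands, summed to 76.6 and 48.1 CPM in the agonist wells and 97.5 and 66.8 CPM in the control wells, nearly all of it Pecam1, which leukocytes also express. Their part in these values was not tested.

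Xcl1, which is made by natural killer cells and CD8 T cells and attracts dendritic cells bearing XCR1, had 2.90 and 0.917 CPM in the agonist wells and 3.08 and 1.53 CPM in the control wells of pools 2 and 3. It was lower with the agonist in both pools by -0.08 and -0.72 log2 units, with a log2 fold change of -0.27 (SE 0.73). Xcl1, with 52 to 151 reads, overlaps Gm20743 on the opposite strand, which had 4 to 28 reads, so its counts are uncertain. Cxcl17, a mucosal chemokine, had 48 and 17 reads in the agonist wells and 65 and 29 reads in the control wells. It overlaps 4732471J01Rik on the opposite strand, which had 128 to 221 reads, so its counts are uncertain too.

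Pool 3 against pool 2, with treatment as a covariate, set the ligands further apart than the treatment did. The median size of the log2 difference, whatever its sign, was 0.96 over the 30 ligands between the pools and 0.47 between the treatments, against 0.43 and 0.28 over all tested genes. The p-values of this comparison cover the spread between wells of 1 pool per arm and not that between mice. Ccl4 was called, 1 of 30 ligands (3.33%), against 0.394% of all tested genes, with 0 ligands higher, against 0.104%. It was lower in pool 3, with 7.81 CPM in the agonist and 11.9 CPM in the control well, against 53.3 CPM in the agonist and 95.3 CPM in the control well of pool 2. The log2 fold change was -2.89 (SE 0.28, edgeR adjusted p = 0.00870). That call was lost without the treatment covariate (adjusted p = 0.113), with library totals only (adjusted p = 0.137), and without control replicate 3 (adjusted p = 0.513) or agonist replicate 3 (adjusted p = 0.311) when no covariate was used, while the log2 fold change stayed between -3.26 and -2.43 with any 1 library left out. DESeq2 called 8 ligands (26.7%, against 3.86% of all tested genes) and limma-voom 5 (16.7%, against 1.50%).

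At an unadjusted p under 0.05, 12 of the 30 ligands differed between the pools (40.0%), against 13.9% of all tested genes. Higher in pool 3 were 6 ligands (20.0%, against 6.15% of all genes), namely Ppbp with a log2 fold change of 2.15 (SE 0.38), Cxcl3 with 1.81 (SE 0.31), Cxcl5 with 1.69 (SE 0.44), Ccl9 with 1.63 (SE 0.31), Cx3cl1 with 0.84 (SE 0.32) and Ccl5 with 0.83 (SE 0.24). Of these Cxcl3 came nearest to the threshold (edgeR adjusted p = 0.0510). Lower were also 6 (20.0%, against 7.71%), which beside Ccl4 were Cxcl13 with -2.01 (SE 0.39), Ccl3 with -1.68 (SE 0.36), Xcl1 with -1.33 (SE 0.52), Ccl12 with -1.24 (SE 0.54) and Cxcl10 with -1.19 (SE 0.39). Each of these 6 higher and 6 lower ligands had both wells of one pool above both wells of the other, whichever the treatment. That held for 8 higher ligands in all (26.7%, against 24.0% of all genes) and 12 lower ones (40.0%, against 25.2%). By more than 1 log2 unit in both treatments, 5 were higher (16.7%, against 3.57%) and 4 lower (13.3%, against 5.24%). The remaining ligands, Ccl22 among them with -0.20 (SE 0.24), did not pass at either level.

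**Figure D4:**
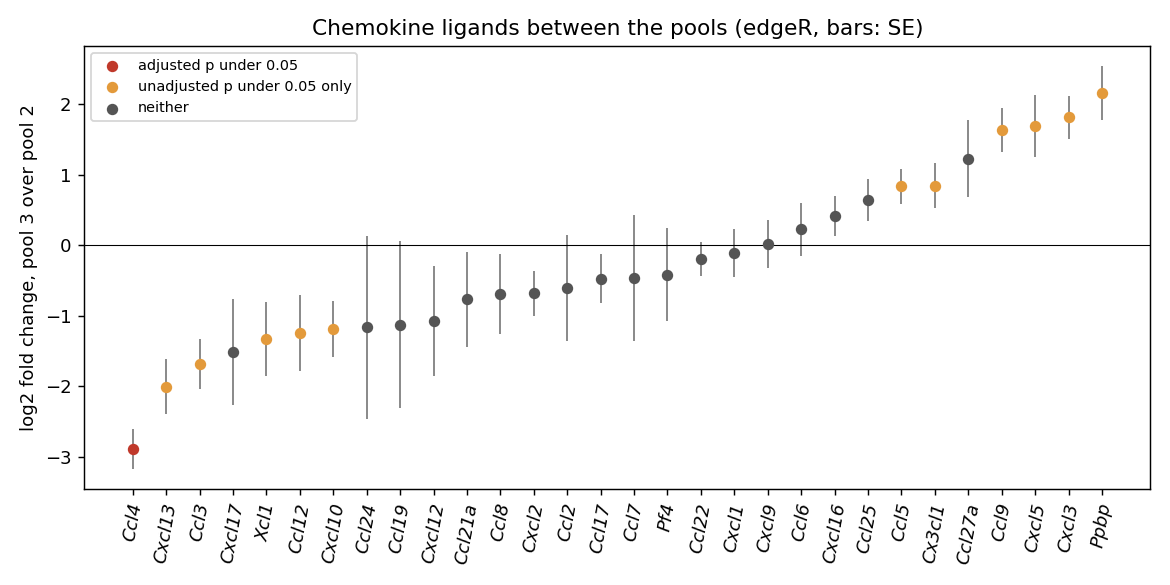
The edgeR log2 fold change of pool 3 over pool 2 for the 30 tested chemokine ligands, ordered by value, with the SE as bars and colour for the p-value reached. The values run from -2.89 for Ccl4 to 2.15 for Ppbp, and Ccl22, Cxcl1 and Cxcl9 lie near 0.

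Neighbouring genes did not always go the same way between the pools. On chromosome 5, Cxcl5, Ppbp and Cxcl3 were higher in pool 3 while Pf4, which lies between Ppbp and Cxcl3, had a log2 fold change of -0.42 (SE 0.66). On chromosome 11, Ccl3 and Ccl4 lie 13.2 kb apart and were both lower in pool 3, and Ccl9 and Ccl5 of the same stretch were higher. Marker genes of other cell types also stood apart by pool. T cell markers, 12 genes that include Cd3e, summed to 321 CPM in the agonist and 484 CPM in the control well of pool 3, against 704 CPM in the agonist and 990 CPM in the control well of pool 2, and 10 of 12 were lower in both wells of pool 3. B cell markers (5 of 8 lower in both wells), with 358 and 427 CPM in pool 3 against 689 and 784 CPM in pool 2, and plasmacytoid dendritic cell markers (6 of 7), with 508 and 719 CPM against 859 and 1128 CPM, stood the same way. Both wells of pool 3 lay below both of pool 2 for 25.2% of all tested genes and above them for 24.0%. Monocyte and macrophage markers summed to 3649 and 3498 CPM in pool 3 against 5259 and 5939 CPM in pool 2. Most of that was Lyz2, and of the 12 markers 7 were lower and 2 higher in both wells of pool 3. Markers of migratory mature dendritic cells summed to 18796 and 17008 CPM against 12534 and 13394 CPM, each with the agonist well first. Ccr7 made up most of this sum, and of the 9 markers 4 were higher and 1, Relb, was lower in both wells of pool 3. Natural killer markers summed to 292 and 316 CPM in pool 3 against 240 and 268 CPM in pool 2, a sum made up mostly of Klrd1 and Klrk1. Its cytotoxic genes had values below 0 for pool 3 over pool 2 on the log2 scale, Prf1 with -2.30 (SE 0.44, adjusted p = 0.0733 in edgeR) and Gzmb with -1.66 (SE 0.53, adjusted p = 0.205 in edgeR), both at unadjusted p-values under 0.05, and the median over its 7 genes was -0.11. The part of these cells in the chemokine differences was not tested.

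Between agonist and control, T cell markers summed to 704 and 321 CPM in the agonist wells against 990 and 484 CPM in the control wells of pools 2 and 3, with 11 of 12 lower in both pools, and all 8 B cell markers and 6 of 7 plasmacytoid dendritic cell markers were lower in both pools. Of all tested genes, 27.8% were lower and 21.0% higher in both pools. Natural killer markers (240 and 292 CPM in the agonist wells, 268 and 316 CPM in the control wells) had 5 of 7 lower in both. Their part in the values of Ccl4, Xcl1 and Ccl3 was not tested. Markers of conventional dendritic cells summed to 5052 and 3601 CPM in the agonist wells against 2702 and 3196 CPM in the control wells. Most of that sum was H2-Ab1, with 3801 and 2014 CPM against 1508 and 1744 CPM. Its log2 difference was 1.33 in pool 2 and 0.21 in pool 3. Of these 11 markers 5 were higher in both pools and 3, Itgax, Clec9a and Cd209a, were lower in both. Mast cell and basophil markers summed to 448 and 832 CPM in the agonist wells against 475 and 790 CPM in the control wells, but Kit, which other cells also express, made up most of that sum. Mcpt4, a mast cell protease, had 189 and 38 reads in the agonist wells against 0 and 0 in the control wells (unadjusted p = 0.00230, edgeR adjusted p = 0.9999), Cpa3 had 159 and 22 against 24 and 30, Tpsb2 had 136 and 0 against 3 and 0, and Mcpt8, a basophil protease, had 0 and 9 against 34 and 1. Ms4a2 (23 reads) and Fcer1a (14 reads) were read in the agonist well of pool 2 and in no other library. That well also held 63 of the Ccl1 reads, and the part of these cells in the ligand values was not tested. Neutrophil markers summed to 8.83 and 10.5 CPM in the agonist wells against 16.0 and 6.43 CPM in the control wells, with Ly6g at 0 in every library. Of 12 monocyte and macrophage markers 1, Mertk, was higher and 4 were lower in both pools. Mertk had 8.48 and 3.14 CPM in the agonist wells against 1.88 and 2.12 CPM. Mpeg1, among the lower, had 135 and 167 CPM against 214 and 353 CPM. Both had an unadjusted p under 0.05 and an adjusted p of 0.9999 in edgeR. Of 9 migratory mature dendritic cell markers 4 were higher and 1 was lower in both pools. The part of these cells in the ligand values was not tested.

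The receptors that these ligands bind gave 0 calls in either comparison. Of 23 chemokine receptor genes, 22 were tested, with a median log2 fold change of -0.21 for the agonist, against -0.05 over all tested genes, and 13 were lower and 1 was higher in both pools, where 27.8% and 21.0% of all genes were. Ccr7, the receptor for Ccl19 and Ccl21a, had 7374 and 13384 CPM in the agonist wells and 10075 and 12262 CPM in the control wells of pools 2 and 3. Ccr9, the receptor for Ccl25, had 113 and 107 CPM against 122 and 188 CPM, Cxcr4 had 70.6 and 86.1 CPM against 90.8 and 88.5 CPM, and the atypical receptor gene Ccrl2 had 72.6 and 74.4 CPM against 91.9 and 70.2 CPM. Ccr2 had 51.9 and 45.7 CPM in the agonist wells and 52.8 and 75.0 CPM in the control wells. Xcr1, the receptor for Xcl1 on dendritic cells of the cDC1 class, had 28.2 and 94.9 CPM against 31.2 and 54.0 CPM, and was higher in pool 3 at an unadjusted p under 0.05 (log2 fold change 1.27, SE 0.31, edgeR adjusted p = 0.111). Ccr3 was also higher in pool 3 at that level (3.81, SE 1.51, on 0 to 42 reads a library), and Cxcr6 (-1.28, SE 0.35) and Cxcr5 (-0.72, SE 0.26) were lower, none of these past the adjusted threshold.

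Proteases that trim or release chemokines and regulators of their transcription were measured beside them, and 0 of 5 and 0 of 15 passed in either comparison. Dpp4, which clips the ends of several chemokines, had 572 and 882 CPM in the agonist wells and 675 and 797 CPM in the control wells, and Adam17 had 354 and 285 CPM against 426 and 255 CPM. Mmp12, a macrophage protease, had 11.6 and 18.9 CPM against 22.1 and 25.0 CPM. Among the regulators the most abundant were Rel, with 1527 and 1109 CPM in the agonist wells and 874 and 1124 CPM in the control wells, Irf1, with 840 and 1246 CPM against 998 and 1140 CPM, and Stat6, with 882 and 1182 CPM against 1055 and 1048 CPM. Tnfaip3, a brake on NF-kB, had 381 and 478 CPM against 379 and 383 CPM. Nfkb2 was the only regulator with an unadjusted p under 0.05 for the agonist in the fit without a block (171 and 94.5 CPM against 49.8 and 80.8 CPM, log2 fold change 1.02, SE 0.40, edgeR adjusted p = 0.9999), and the pool 2 control was again its low library. In the blocked fit Nfkbia (unadjusted p = 0.0432) and Jun (unadjusted p = 0.04997) were under 0.05 as well, neither of them past the adjusted threshold. Fos, with -1.22 (SE 0.26), and Jun, with -1.25 (SE 0.40), stood lower in pool 3 with unadjusted p-values under 0.05 and edgeR adjusted p values of 0.0858 and 0.206.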

How the data were processed

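Read counts per gene of 4 libraries were used as the authors deposited them, not normalized. The build was GRCm38 and the tools were the aligner STAR 2.7 and the counter HTSeq 0.11.1, per the submitters' processing notes, and libraries came from the SMART-seq v4 kit on RNA with an average integrity number of 9.0, per the labels' protocols. The kit does not mark strand and the counting's strand setting is not given in the sources used here. All 55450 gene rows matched GENCODE M21 by ID and symbol. Summary lines without a gene were not used. Of a library's reads, 16.0% to 20.0% matched no annotated feature and 5.77% to 6.50% overlapped several genes. A further 6.54% to 6.98% aligned to more than 1 place.

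The default expression filter of edgeR 4.0.16 (minimum count 10) kept 18297 genes, scaled by the TMM method. Its two-sided quasi-likelihood test compared the treatments without further terms and the pools with treatment as covariate, with Benjamini-Hochberg adjustment over all tested genes at 0.05. SEs and 95% intervals were derived from the fold change and the F statistic. Differences within a pool use log2 CPM with a prior count of 2. RPKM divides CPM by the union of GENCODE exons. Alternatives were the pool as a block, DESeq2 1.42.0, limma-voom (limma 3.58.1), library totals only, no filter, a stricter filter (1 CPM in at least 2 libraries) and each library left out. The fits were tested on simulated data. For the treatments without a block these were drawn with no difference between pools, so that run does not cover data where pools differ. R 4.3.3, Python 3.11.15, pandas 2.3.3 and matplotlib 3.10.9 were used.

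The protocol says that the cells of a sample were divided between wells, so the numbers pair the libraries. Deviations from the group mean were only weakly related within a pool (Pearson r = 0.288 across 18297 genes, a description). Ligands with a mean of at least 1 CPM, or an unadjusted p under 0.05, are given by library. So are the 6 most abundant receptors, up to 4 proteases and 4 regulators, and any of these with such a p, except 1 receptor that is not reported here. The members, lists and rules were chosen with earlier results of these data known.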

Additional observations from a re-analysis of the deposited data

How the results depend on the processing

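For the agonist, 0 ligands were called under each alternative run, single libraries left out included. Genes called numbered 0 as reported, 1 with the replicate block, 7 in DESeq2, 9 with no filter and 0 to 2 with a library left out (2 without control replicate 3). The ligand median of 0.05 ranged from 0.012 to 0.37, the highest without control replicate 2. Between the pools, 72 genes became 5 without the group covariate or with library totals only, 10 with the stricter filter, 275 in limma-voom, 600 with no filter, 706 in DESeq2 and 1 to 1575 with a library left out and no covariate (841 without control replicate 2). Ligands called there numbered 1, against 0 without the covariate, 0 with library totals only, 5 in limma-voom, 7 with no filter, 8 in DESeq2 and 0 to 9 with a library left out (4 without control replicate 2, 9 without agonist replicate 2, 0 without either library of pool 3). The ligand median of -0.47 ranged from -0.84 to -0.13 in those fits. The pool as a block changed no call of a ligand. Signs turned for the agonist, all without a call, for Ccl5 (0.022 in DESeq2, 0.034 with the stricter filter), Ccl17 (0.012 in limma-voom, 0.015 with the stricter filter), Ccl12 (-0.065 with the block, -0.076 in limma-voom) and Ccl8 (0.00095 with the block, 0.024 in limma-voom), and between pools for Cxcl9 (-0.072 with library totals only, -0.045 with the stricter filter). Fits without a library mix pool and treatment, and agonist log2 fold changes that turned sign there ran from -0.63 to 0.45 for Ccl5, -0.079 to 0.26 for Ccl22, -2.74 to 1.36 for Ccl4, -0.31 to 0.39 for Ccl17, -0.19 to 2.83 for Ppbp, -1.08 to 0.79 for Cxcl10, -1.35 to 0.76 for Ccl3, -0.92 to 0.45 for Cx3cl1, -0.58 to 1.84 for Cxcl3, -1.57 to 1.06 for Cxcl13, -0.23 to 0.50 for Cxcl2, -0.52 to 1.61 for Ccl9, -1.29 to 0.33 for Xcl1, -0.95 to 0.73 for Ccl12, -0.45 to 0.56 for Ccl8, -0.55 to 0.38 for Ccl25, -1.04 to 0.34 for Ccl21a, -0.54 to 1.02 for Ccl27a and -0.64 to 1.73 for Cxcl12. Between pools they ran from -0.14 to 0.98 for Cxcl16, -0.52 to 0.32 for Cxcl1, -0.27 to 0.75 for Ccl6, -0.37 to 0.36 for Cxcl9 and -1.41 to 0.66 for Pf4, with -0.083 for Cxcl9 without control replicate 2 and 0.059 for Pf4 without control replicate 3. The causes were not tested. With 2 libraries a group and no block, intervals such as -3.51 to 1.89 for Ccl4 leave large changes undetectable. With the pool as a block the interval was -1.33 to -0.12 for Ccl4 (edgeR adjusted p = 0.9998) and -1.20 to 0.50 for Cxcl13.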
